A study of Mus musculus with 2 samples.

Results

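The 43 genes described here are those of Nodal, TGF-beta and BMP signalling: ligands, receptors, Smad proteins, inhibitors and Id targets. They were taken from a list of gene symbols, and each was found by its Ensembl gene ID among the 43629 genes counted. RNA was measured in mouse embryonic stem (ES) cells that carry a Drosha knockout; ES cells are pluripotent and come from the blastocyst. The series has 2 libraries, replicates B and A of 1 group, so the comparisons are between genes and between these libraries, and no other genotype was analysed here. The cells were of the 129/Ola background, were untreated, and grew at passage 7 in serum with LIF, a cytokine that keeps mouse ES cells undifferentiated. According to the series title the knockout was made with a paired CRISPR/Cas9 approach. Drosha is the nuclear nuclease that cuts microRNA hairpins out of their primary transcripts. The titles number the cells 2 in B and 1 in A while the source name is the same in both, and separate cultures are not stated. The spread between B and A may therefore be technical or lie between lines.

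Ligands of the TGF-beta superfamily bind a pair of type I and a pair of type II receptors, and the type I kinase then phosphorylates a receptor Smad. Nodal, activin and TGF-beta signal through Smad2 and Smad3, BMPs through Smad1, Smad5 and Smad9, and both branches share the partner Smad4. In mouse ES cells grown in serum, BMP and its Id targets are known to help LIF in self-renewal, and Nodal with its Lefty antagonists is known as an autocrine loop. MicroRNAs of the miR-290 and miR-302 families, which need Drosha, have relatives with the same seed that are known to repress Lefty mRNAs in zebrafish, and human miR-302 is known to do so in human ES cells.

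The mature sequences of these microRNAs are shown first because they share the seed by which they pair with mRNAs. Of 6 listed, 5 were found in RefSeq (GRCm38.p6), and all 5 hold the same bases 2 to 8, printed in capitals, 5′ to 3′. The first 3 lie on chromosome 7 and the last 2 on chromosome 3, all on the plus strand.
mmu-miR-291a-3p (chr7:3218968-3218989): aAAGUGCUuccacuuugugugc
mmu-miR-294-3p (chr7:3220691-3220712): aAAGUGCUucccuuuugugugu
mmu-miR-295-3p (chr7:3220815-3220837): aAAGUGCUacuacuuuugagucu
mmu-miR-302b-3p (chr3:127545275-127545297): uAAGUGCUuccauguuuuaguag
mmu-miR-302d-3p (chr3:127545665-127545687): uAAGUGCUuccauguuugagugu

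The match to this seed in an mRNA is AGCACTT, searched on the mRNA strand of the longest annotated 3′ UTR of each gene. It was found in 10 of the 43 genes (23.3%) and in 3054 of 20679 protein coding genes (14.8%). The 3′ UTRs of the signalling genes were longer, with a median of 1857 bases against 964, and per kilobase the matches were 0.139 and 0.122. The 10 genes were Lefty1, Lefty2, Inhba, Inhbb, Bmp8b, Acvr1c, Tgfbr1, Tgfbr2, Smad2 and Smad5. Smad2 and Tgfbr2 had 3 matches each, Smad5 had 2, and the others had 1. A match followed by A was found in 4 of the 43 genes (9.30%) and in 618 of all (2.99%). Per kilobase these matches were 0.0370 in the 43 genes and 0.0209 in all. These 4 sites are shown because they include both Lefty genes, with the match in capitals and the coordinates of the 7 matched bases on GRCm38. The Tgfbr2 site is on the minus strand and the others on the plus strand.
Lefty1 3′ UTR (chr1:180938213-180938219): cactgtatgcgaAGCACTTaca
Lefty2 3′ UTR (chr1:180897917-180897923): tcacccagtttaAGCACTTaca
Smad5 3′ UTR (chr13:56741486-56741492): ggtcagtgctcgAGCACTTagc
Tgfbr2 3′ UTR (chr9:116087772-116087778): atcaaaacctaaAGCACTTatt
A match is a description of sequence and not a measured site. With 1 genotype, the levels of these genes say nothing of a change from cells that make the microRNAs.

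Library B held 42322129 gene counts and library A 29264632. The 43 genes together had 61962 reads in B and 43778 in A, which is 0.146% and 0.150% of all counts. Levels are given as TPM, reads per exon length scaled so that each library sums to the same total, with the mean ± SD of both libraries (n = 2). A gene with 0 reads could still lie at the level of 3 counts, and floors and intervals cover counting error only. Drosha itself had 7023 reads in B and 4865 in A, or 74.3 and 75.0 TPM. A count over the whole gene does not check the knockout label. All 10 markers of pluripotency were at 1 TPM or more, led by Dppa5a at 10322 TPM in B and 9950.2 TPM in A and Pou5f1 at 1376 and 1423 TPM. Of the fibroblast and feeder markers 6 of 15 were, and they summed to 467 TPM in B and 481 TPM in A, most of it Fn1 (343 and 350 TPM) and Vim (70.1 and 74.6 TPM); none of the 15 had 0 reads. The endoderm, mesoderm, neural and trophectoderm lists had 3 of 8, 4 of 8, 3 of 6 and 3 of 6 at that level. Their highest pairs were Hnf4a and Gata4 for endoderm, Eomes and Kdr for mesoderm, Tubb3 and Nes for neural cells, and Krt8 and Krt7 for trophectoderm. In bulk RNA, fewer cells of a type and less RNA per cell cannot be told apart.

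Most of the signalling genes had RNA in these cells, at levels from 0 to 178 TPM. At least 1 TPM in both libraries was reached by 30 of 43 genes (69.8%), against 58.8% of the 24550 genes with a read. Their median level was 7.86 TPM, and that of all genes with a read was 2.93 TPM. These are unlike sets. The 43 genes are all protein coding and include Inhba, which had no read, while the genes with a read also hold other kinds, such as antisense transcripts. The part of the kind of gene in these differences was not tested. The 10 highest were Lefty1, Lefty2, Gdf3, Id1, Ski, Id3, Smad4, Skil, Smad7 and Acvr1b. Of the 42 pairs of neighbours in the order of levels, 16 had ranges that overlapped between the libraries, among them Ski and Id3, Skil and Smad7, Smad7 and Acvr1b, and Nodal and Bmp4. These ranges do not compare the genes within a library. By exon length Ski lay above Id3, Smad7 above Acvr1b and Nodal above Bmp4 in each library. Nodal and Bmp4 had 43.2 and 40.2 TPM in B, and 46.4 and 43.2 TPM in A. Skil lay above Smad7 in B (50.77 and 48.09 TPM) and just below it in A (50.80 and 50.86 TPM). By the longest transcript Id3 lay above Ski, Bmp4 above Nodal and Skil above Smad7 in each library, so these orders depend on the gene model. These small differences were not tested.

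**Figure D1:**
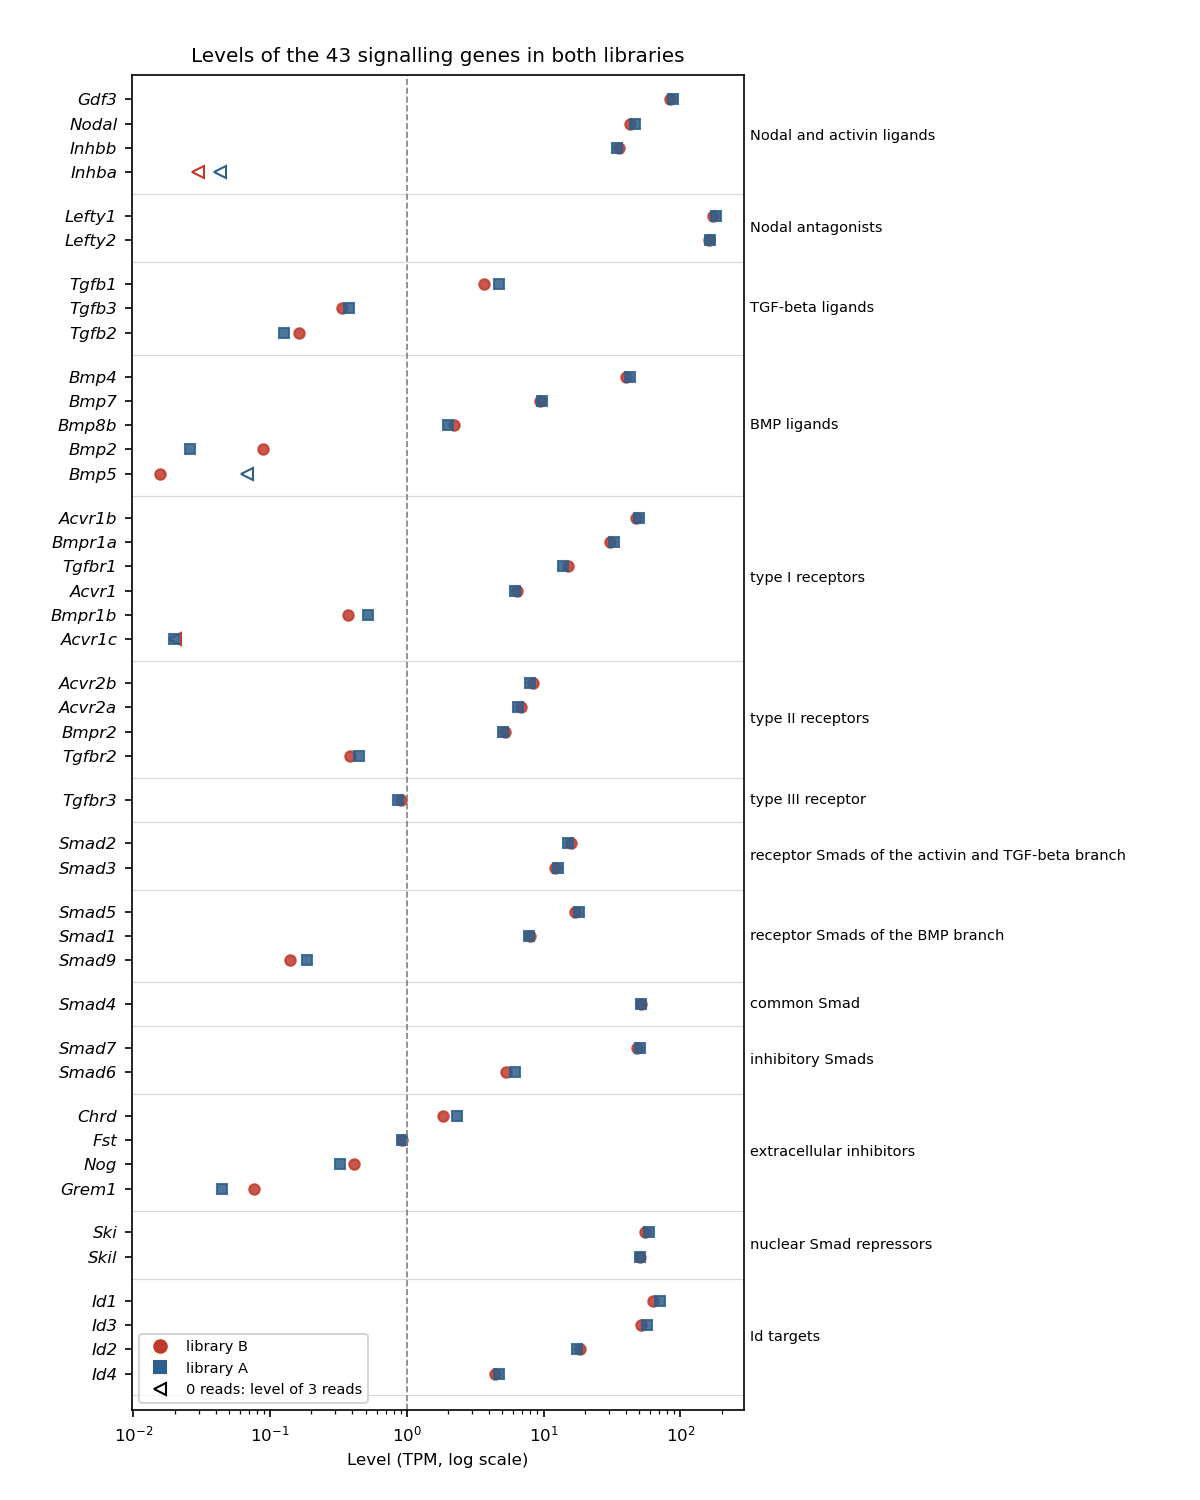
Level of each signalling gene in library B (circles) and library A (squares), in TPM on a log axis, grouped by role, with open triangles at the level of 3 reads for a library with 0 reads. Lefty1 and Lefty2 lie highest, at 178 and 162 TPM on average, and 30 of 43 genes lie at or beyond 1 TPM (dashed line) in both libraries.

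The Lefty antagonists were the highest of all 43 genes, higher than the ligand they block. Lefty1 (chromosome 1, 180935022 to 180938400, plus strand) had 4827 reads in B and 3510 in A, or 172 and 183 TPM (178 ± 7.25). Lefty2 (chromosome 1, 180893108 to 180899103, plus strand) had 6697 reads in B and 4659 in A, or 161 and 163 TPM (162 ± 1.55). Both encode secreted proteins that bind Nodal or its co-receptor and keep it from its receptors. Nodal (chromosome 10, 61417972 to 61425338, plus strand), the ligand, had 1439 reads in B and 1063 in A, or 43.2 and 46.4 TPM (44.8 ± 2.33). The ratio of levels of Lefty1 over Nodal was 3.97 ± 0.0442 and that of Lefty2 over Nodal 3.63 ± 0.154. Lefty1 and Lefty2 lay close to each other, at a ratio of 1.09 ± 0.0342, and their ranges did not overlap.

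Part of the Lefty sequence is shared, which bears on how far their reads can be told apart. Both coding sequences are 1107 bases long and 91.9% alike without gaps, and the longest run they share is 140 bases. Of the 50-base windows of their transcripts, 17.9% of those of Lefty1 and 11.95% of those of Lefty2 also occur in the other gene. With windows of 100 bases the shares were 5.85% and 3.86%. The labels and headers do not say how reads with several matches were counted, so the division of reads between Lefty1 and Lefty2 is uncertain. Their sum was 334 TPM in B and 346 TPM in A.

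Of the Nodal and activin ligands, 3 of 4 were present and 1 had no read. Gdf3, a relative of Nodal that acts through the same receptors, had 3246 reads in B and 2349 in A, or 84.2 and 88.7 TPM (86.4 ± 3.23), and its level was 1.93 ± 0.0281 times that of Nodal. It held 51.6% of the summed TPM of this role in B and 52.4% in A. Inhbb, the beta subunit of activin B, had 2423 reads in B and 1591 in A, or 35.8 and 34.2 TPM (35.0 ± 1.10). Inhba, the beta subunit of activin A, had 0 reads in both libraries, which allows up to 0.0295 TPM in B and 0.0430 TPM in A. The RNA of an activin subunit was thus detected for Inhbb and not, at this depth, for Inhba.

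The TGF-beta ligands were low. Tgfb1, the most widely expressed of them, had 292 reads in B and 261 in A, or 3.64 and 4.74 TPM (4.19 ± 0.778), and held 88.0% of their summed TPM in B and 90.4% in A. Tgfb2 had 15 and 8 reads in B and A, or 0.163 and 0.126 TPM, and Tgfb3 had 18 and 14 reads, or 0.334 and 0.379 TPM. The summed level of these ligands was 4.14 TPM in B and 5.24 TPM in A, while the Nodal and activin ligands summed to 163 and 169 TPM. The level of Tgfb1 depends on the gene model, and was 6.65 TPM by the length of its longest transcript.

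Bmp4 stood far above the other BMP ligands. This ligand, which is known to support self-renewal of mouse ES cells and to drive mesoderm in the embryo, had 1438 reads in B and 1060 in A, or 40.2 and 43.2 TPM (41.7 ± 2.10). Bmp7 had 605 reads in B and 425 in A, or 9.46 and 9.68 TPM (9.57 ± 0.157), and Bmp4 over Bmp7 was 4.35 ± 0.148. Bmp8b, known for its part in germ cell formation, had 136 reads in B and 85 in A, or 2.20 and 2.01 TPM (2.10 ± 0.139). Bmp4 held 77.4% of the summed TPM of the BMP ligands in B and 78.7% in A, and its range overlapped that of Nodal. Bmp2 had 5 reads in B and 1 in A, and Bmp5 had 1 read in B and 0 in A, below what this depth can compare. Of the 50-base windows of Bmp8b 5.77% are shared, nearly all with its neighbour Bmp8a, which had 39 reads in B and 23 in A, and 3.43% of the exon bases of Bmp8b overlap Ppie on the opposite strand, which had 2780 and 1925.

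Among type I receptors, the kinases that phosphorylate Smads, Acvr1b and Bmpr1a led. Acvr1b, the activin and Nodal receptor ALK4, had 3332 reads in B and 2408 in A, or 47.4 and 49.9 TPM (48.6 ± 1.77). Bmpr1a, the BMP receptor ALK3, had 3112 reads in B and 2261 in A, or 30.8 and 32.6 TPM (31.7 ± 1.27). They held 47.4% and 30.8% of the summed TPM of the type I receptors in B, and 48.4% and 31.6% in A. Tgfbr1, the TGF-beta receptor ALK5, had 1566 reads in B and 991 in A, or 15.1 and 13.9 TPM (14.5 ± 0.830), and Acvr1b over Tgfbr1 was 3.37 ± 0.316. Acvr1, the BMP receptor ALK2, had 487 and 325 reads in B and A, or 6.34 and 6.16 TPM. The other BMP receptor, Bmpr1b, had 35 reads in B and 34 in A, or 0.369 and 0.522 TPM, so that Bmpr1a over Bmpr1b was 72.9 ± 14.9. Acvr1c, the receptor ALK7, had 0 reads in B and 2 in A.

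Type II receptors, which bind ligand and activate the type I kinases, were lower as a group, and the receptor for TGF-beta was the lowest of them. Acvr2b, a receptor for activin, Nodal and some BMPs, had 525 reads in B and 343 in A, or 8.40 and 7.99 TPM (8.19 ± 0.286). Acvr2a, its paralog, had 618 reads in B and 405 in A, or 6.83 and 6.52 TPM (6.67 ± 0.218). Bmpr2, the BMP receptor, had 1485 reads in B and 986 in A, or 5.19 and 5.02 TPM (5.10 ± 0.120). These receptors lay within a narrow band, while Tgfbr2 lay apart. Tgfbr2 had 50 reads in B and 40 in A, or 0.384 and 0.447 TPM (0.415 ± 0.0449), and held 1.84% of the summed TPM of the type II receptors in B and 2.24% in A. Acvr2b over Tgfbr2 was 19.9 ± 2.84 and Bmpr2 over Tgfbr2 was 12.4 ± 1.63. Tgfbr3, the co-receptor betaglycan that presents TGF-beta, had 95 reads in B and 62 in A, or 0.912 and 0.867 TPM. Tgfbr1 was thus present while Tgfbr2 and Tgfbr3 were both below 1 TPM. The exons of Acvr2a overlap those of Orc4 on the opposite strand over 7.84% of their length, and Orc4 had 2936 reads in B and 1894 in A. Whether reads were counted by strand is not stated in the labels or headers, so some of the reads of Acvr2a could belong to Orc4.

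**Figure D2:**
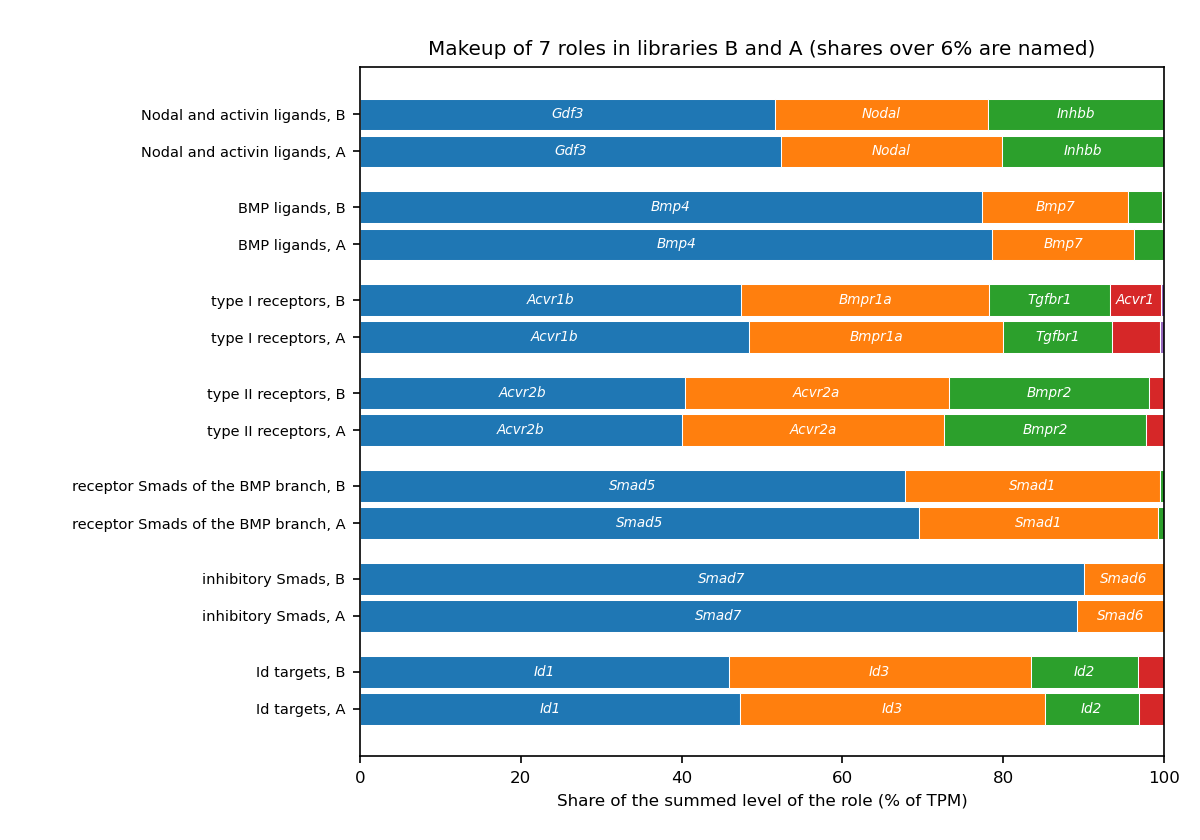
Share of each gene in the summed TPM of its role, in percent, as horizontal bars with library B above library A for each role. The same gene led each role in both libraries, among them Gdf3 (51.6% in B and 52.4% in A), Bmp4 (77.4% and 78.7%), Acvr1b (47.4% and 48.4%) and Smad7 (90.1% and 89.2%).

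The Smads of both branches were present, and Smad4 and Smad7 were the highest. Smad2 had 2199 reads in B and 1443 in A, or 15.7 and 15.0 TPM (15.4 ± 0.489), and Smad3 had 1069 and 766 reads, or 12.1 and 12.7 TPM (12.4 ± 0.377). These receptor Smads of the activin and TGF-beta branch lay near each other, at a ratio of Smad2 over Smad3 of 1.24 ± 0.0773. In the BMP branch Smad5 had 2017 reads in B and 1473 in A, or 17.1 and 18.2 TPM (17.6 ± 0.773), and Smad1 had 793 and 531 reads, or 7.96 and 7.76 TPM (7.86 ± 0.137). Smad9, the remaining BMP Smad, had 12 reads in B and 11 in A, or 0.140 and 0.188 TPM. The receptor Smads of the activin branch summed to 27.8 TPM in B and 27.7 TPM in A, and those of the BMP branch to 25.2 and 26.1 TPM.

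Smad4, the partner both branches need, had 3056 reads in B and 2099 in A, or 51.7 and 51.8 TPM (51.7 ± 0.0264), and its level was 3.36 ± 0.109 times that of Smad2. Smad7, which blocks type I receptors and is itself a known target of the pathway, had 3461 reads in B and 2512 in A, or 48.1 and 50.9 TPM (49.5 ± 1.95). Smad6, the inhibitor with a preference for the BMP branch, had 271 reads in B and 216 in A, or 5.31 and 6.17 TPM (5.74 ± 0.606). Smad7 over Smad6 was 8.65 ± 0.572. Smad7 thus lay at about the level of Smad4, and beyond that of each of the receptor Smads in both libraries.

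The 4 secreted inhibitors of BMP and activin among the 43 genes were low, whereas the nuclear repressors Ski and Skil were high. Some antagonists outside the 43 genes were higher, among them Fstl1 with 59.6 TPM in B and 60.3 TPM in A. Chrd, chordin, which binds BMPs, had 183 reads in B and 158 in A, or 1.84 and 2.31 TPM (2.07 ± 0.335). By exon length Chrd was the only 1 of the 4 at 1 TPM or more. Fst, follistatin, which binds activin, had 67 and 46 reads in B and A and 0.917 TPM in both libraries. By the longest transcript Fst had 1.17 TPM in both, so its place below 1 TPM depends on the gene model. The BMP antagonists Nog and Grem1 had 11 and 5 reads in B, and 6 and 2 in A. All 4 summed to 3.24 TPM in B and 3.60 TPM in A. Chrd exons overlap Thpo on the opposite strand over 3.82% of their length, and Thpo had 191 reads in B and 137 in A. Ski had 4896 reads in B and 3581 in A, or 55.3 and 58.9 TPM (57.1 ± 2.57), and Skil had 7835 and 5380 reads, or 50.8 TPM in both libraries (50.8 ± 0.0164). Both bind Smads and hold their targets silent. Ski over Skil was 1.12 ± 0.0502 by exon length and 0.785 by the longest transcript, so their order depends on the gene model.

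All 4 Id genes, targets of BMP signalling that encode inhibitors of basic helix-loop-helix factors, were present. Id1 had 1171 reads in B and 897 in A, or 63.4 and 70.8 TPM (67.1 ± 5.20). Id3 had 1480 reads in B and 1109 in A, or 51.9 and 56.7 TPM (54.3 ± 3.37). Id2 had 718 and 466 reads in B and A, or 18.5 and 17.5 TPM, and Id4 had 271 and 199 reads, or 4.42 and 4.73 TPM (4.58 ± 0.219). Id1 held 45.9% of the summed TPM of the Id genes in B and 47.3% in A. Id1 over Id3 was 1.24 ± 0.0192 by exon length and 0.882 by the longest transcript, so their order also depends on the gene model. Id1 and Id3 together stood well above Id2 in both libraries and under both lengths.

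The libraries were then compared gene by gene, which asks how far the levels of these genes repeat. The log2 ratio is of B over A after scaling by library size (TMM). Reads were compared by a two-sided exact binomial test, with Benjamini-Hochberg adjustment over the 18198 genes with at least 10 reads. It weighs a difference against counting error only, and with 1 library on each side there is no replicate check. Of the 43 genes 38 had at least 10 reads and 0 were called at an adjusted p of 0.05, while 417 of all 18198 genes (2.29%) were, 1.30% higher and 0.989% lower in B. At an unadjusted p below 0.05 there were 6 of 38, namely Lefty1, Tgfb1, Tgfbr1, Chrd, Ski and Id1, against 2250 of all genes (12.4%). At least a 2-fold difference was shown by 0 of 38 and by 541 of all genes (2.97%), 1.56% higher and 1.42% lower in B. An edgeR exact test that assumed a coefficient of variation of 0.1 called 0 of the 38, and 1 of all 18198 genes (0.00550%). The 5 genes with fewer than 10 reads, Inhba, Bmp2, Bmp5, Acvr1c and Grem1, were not tested.

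**Figure D3:**
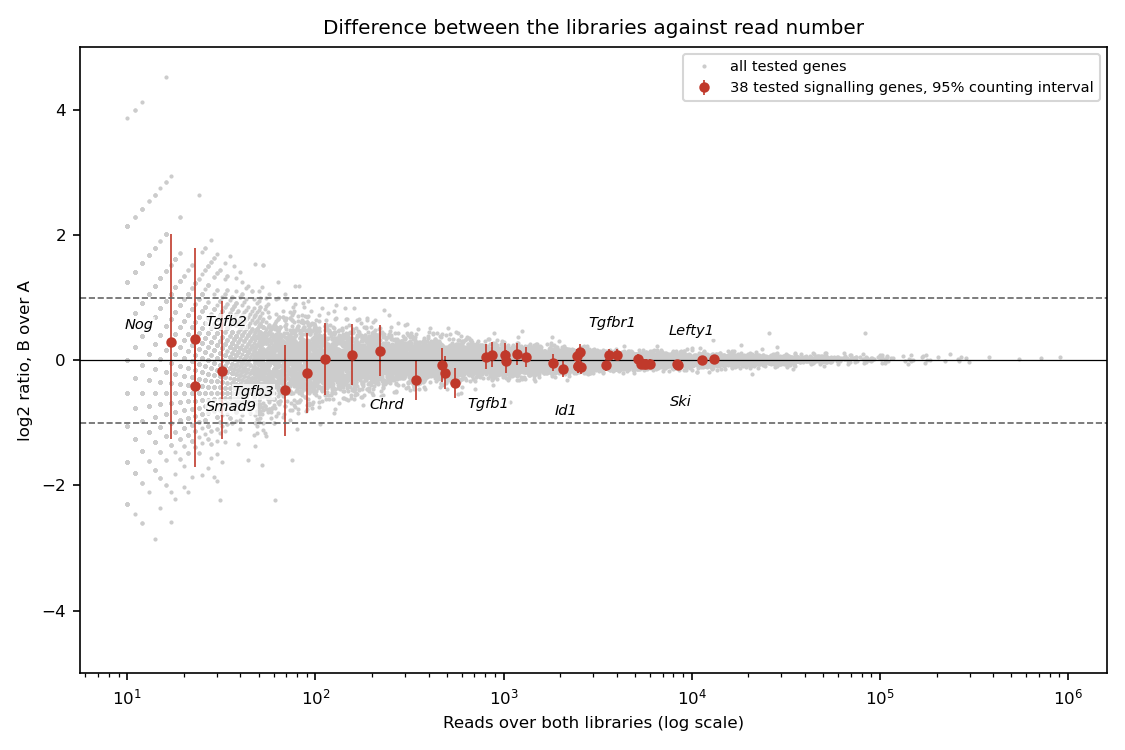
Log2 ratio of library B over library A against the reads of a gene over both libraries (log axis), for all tested genes (grey) and the 38 tested signalling genes (red, with 95% counting intervals). The 23 signalling genes with at least 1000 reads lie between -0.14 and 0.13, and all 38 lie inside the dashed lines of a 2-fold difference.

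Tgfb1 came nearest to a call. Its ratio of B over A was 0.778 (95% counting interval 0.656 to 0.922), a log2 ratio of -0.36, with an exact binomial p of 0.00327 and a Benjamini-Hochberg adjusted p of 0.0959. Chrd had a log2 ratio of -0.31, Id1 of -0.14, Ski of -0.074 and Lefty1 of -0.065, all lower in B than in A by their values, while Tgfbr1 had 0.13. Their adjusted exact binomial p-values were 0.395 for Chrd, 0.308 for Id1, 0.260 for Ski, 0.371 for Lefty1 and 0.270 for Tgfbr1. None of these differences passed the threshold, and a miss does not show that the levels were equal. Among the 23 genes with at least 1000 reads the log2 ratios lay between -0.14 and 0.13, and over all 38 between -0.48 (Bmpr1b) and 0.34 (Tgfb2). The log2 ratio was above 0 for 16 genes and below 0 for 22, with a median of -0.050. Over all 18060 tested genes with an annotated length 8960 were above 0 and 9100 below, with a median of -0.00091.

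GC content moved with the ratio across all genes: its median was 0.039 in the fifth of genes with the lowest GC content and -0.056 in the fifth with the highest. In the signalling genes these medians were 0.017 over 7 genes and -0.070 over 8. With that trend removed Inhbb, whose transcript has 60.9% GC, had a log2 ratio of 0.16 and an adjusted exact binomial p of 0.0496, against 0.082 and 0.490 without the removal, and the trend-removed test called 144 of all genes (0.791%). Markers of cell types also differed between the libraries. Of the 13 tested fibroblast markers 4 were called lower in B, against 0.989% of all tested genes. They were Col3a1, Postn, Col1a2 and Dcn, with log2 ratios of -2.24, -1.93, -1.67 and -1.60. These 4 had few reads, 14, 8, 16 and 24 in B and 47, 22, 36 and 51 in A. With the GC trend removed all 4 were still called, and Col3a1 was the 1 gene called by edgeR's exact test. The abundant Fn1 and Vim had log2 ratios of -0.010 and -0.072 and were not called. Among the 13 markers 10 had a log2 ratio below 0 and 3 above. Of the 10 pluripotency markers 3 were called, against 2.29% of all tested genes. Utf1 was lower in B, with a log2 ratio of -0.22, and Dppa5a and Tdgf1 were higher, with 0.071 and 0.051. These 3 had many reads, such as 101702 in B and 67292 in A for Dppa5a, and the test weighs counting error only. With the GC trend removed Utf1 and Dppa5a were still called and Tdgf1 was not. None of the 3 was called by edgeR's exact test. In the other marker lists 0 genes were called, and Sox17, an endoderm marker with 7 reads in B and 10 in A, was past 2-fold. The part of these markers in the ratios of Tgfb1, Chrd and the other signalling genes was not tested.

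Beyond these 43 genes the pathway was described with a list of 76 other genes. Of these 44 (57.9%) reached 1 TPM in both libraries, close to the 58.8% of all genes with a read. All 9 co-receptors and other receptors did, all 16 Smad partners and regulators, 7 of 11 reported targets, 5 of 10 genes of ligand processing and latency, 4 of 12 other extracellular antagonists and 3 of 18 other ligands. The secreted molecules outside the 43 genes were thus mostly below 1 TPM, and the Smad partners were all present. Tdgf1, the Nodal co-receptor Cripto, was the highest at 817 TPM in B and 799 TPM in A (808 ± 13.2). Eng, the co-receptor endoglin, had 29.8 TPM in B and 30.9 TPM in A, and Amhr2, the receptor of anti-Müllerian hormone, had 19.2 and 18.6 TPM.

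Foxh1, the DNA-binding partner of Smad2 and Smad3 in Nodal signalling, had 109.5 TPM in B and 115 TPM in A. Tgif1, a repressor that binds Smads, had 107.9 and 109 TPM, and Usp9x, a deubiquitinase that acts on Smad4, had 68.6 and 66.1 TPM. These nuclear and cytoplasmic partners lay at or beyond the level of Smad4. Of the proteins that process or store ligands, Ltbp4, which holds latent TGF-beta in the matrix, had 69.7 TPM in B and 74.9 TPM in A. The convertases Pcsk6 and Furin, which cleave the Nodal precursor, had 31.0 and 7.49 TPM in B, and 30.6 and 7.58 TPM in A. Fstl1, Twsg1 and Fstl3 led the other antagonists, with 59.6, 26.9 and 4.45 TPM in B, and 60.3, 26.7 and 5.99 TPM in A.

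Among the other ligands Gdf15 had 11.1 TPM in B and 11.4 TPM in A, the inhibin subunit Inha had 2.73 and 3.23 TPM, and Inhbc had 1.28 and 1.43 TPM. The reported targets were led by the phosphatase Dusp9, with 123.3 TPM in B and 122.9 TPM in A, and the matrix protein Ccn2, with 40.8 and 40.3 TPM. Of the 4 targets that are also on the mesoderm list, Eomes had 2.37 TPM in B and 2.05 TPM in A, and Hand1, with 32 reads in each library, was also at 1 TPM or more in both. The other two, Mixl1 and T, were below 1 TPM, with 0.904 and 0.190 TPM in B, and 0.838 and 0.158 TPM in A.

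Of the 63 tested genes of this wider list 3 were called between the libraries, all with small differences, against 2.29% of all tested genes. Tdgf1 was higher in B with a log2 ratio of 0.051 (adjusted exact binomial p = 0.00325, Benjamini-Hochberg), and Usp9x with 0.072 (0.00521). Ltbp4 was lower in B with -0.086 (0.0452), and was not called with DESeq2 size factors. None of the 3 was called with the GC trend removed, where the adjusted exact binomial p was 0.248 for Tdgf1, 0.754 for Usp9x and 1 for Ltbp4, nor by edgeR's exact test, where it was 1 for each. Gdf5, with 4 reads in B and 7 in A, was the only 1 past 2-fold, as were 2.97% of all tested genes, with a log2 ratio of -1.26 and an adjusted p of 0.603 in the same exact test.

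**Figure D4:**
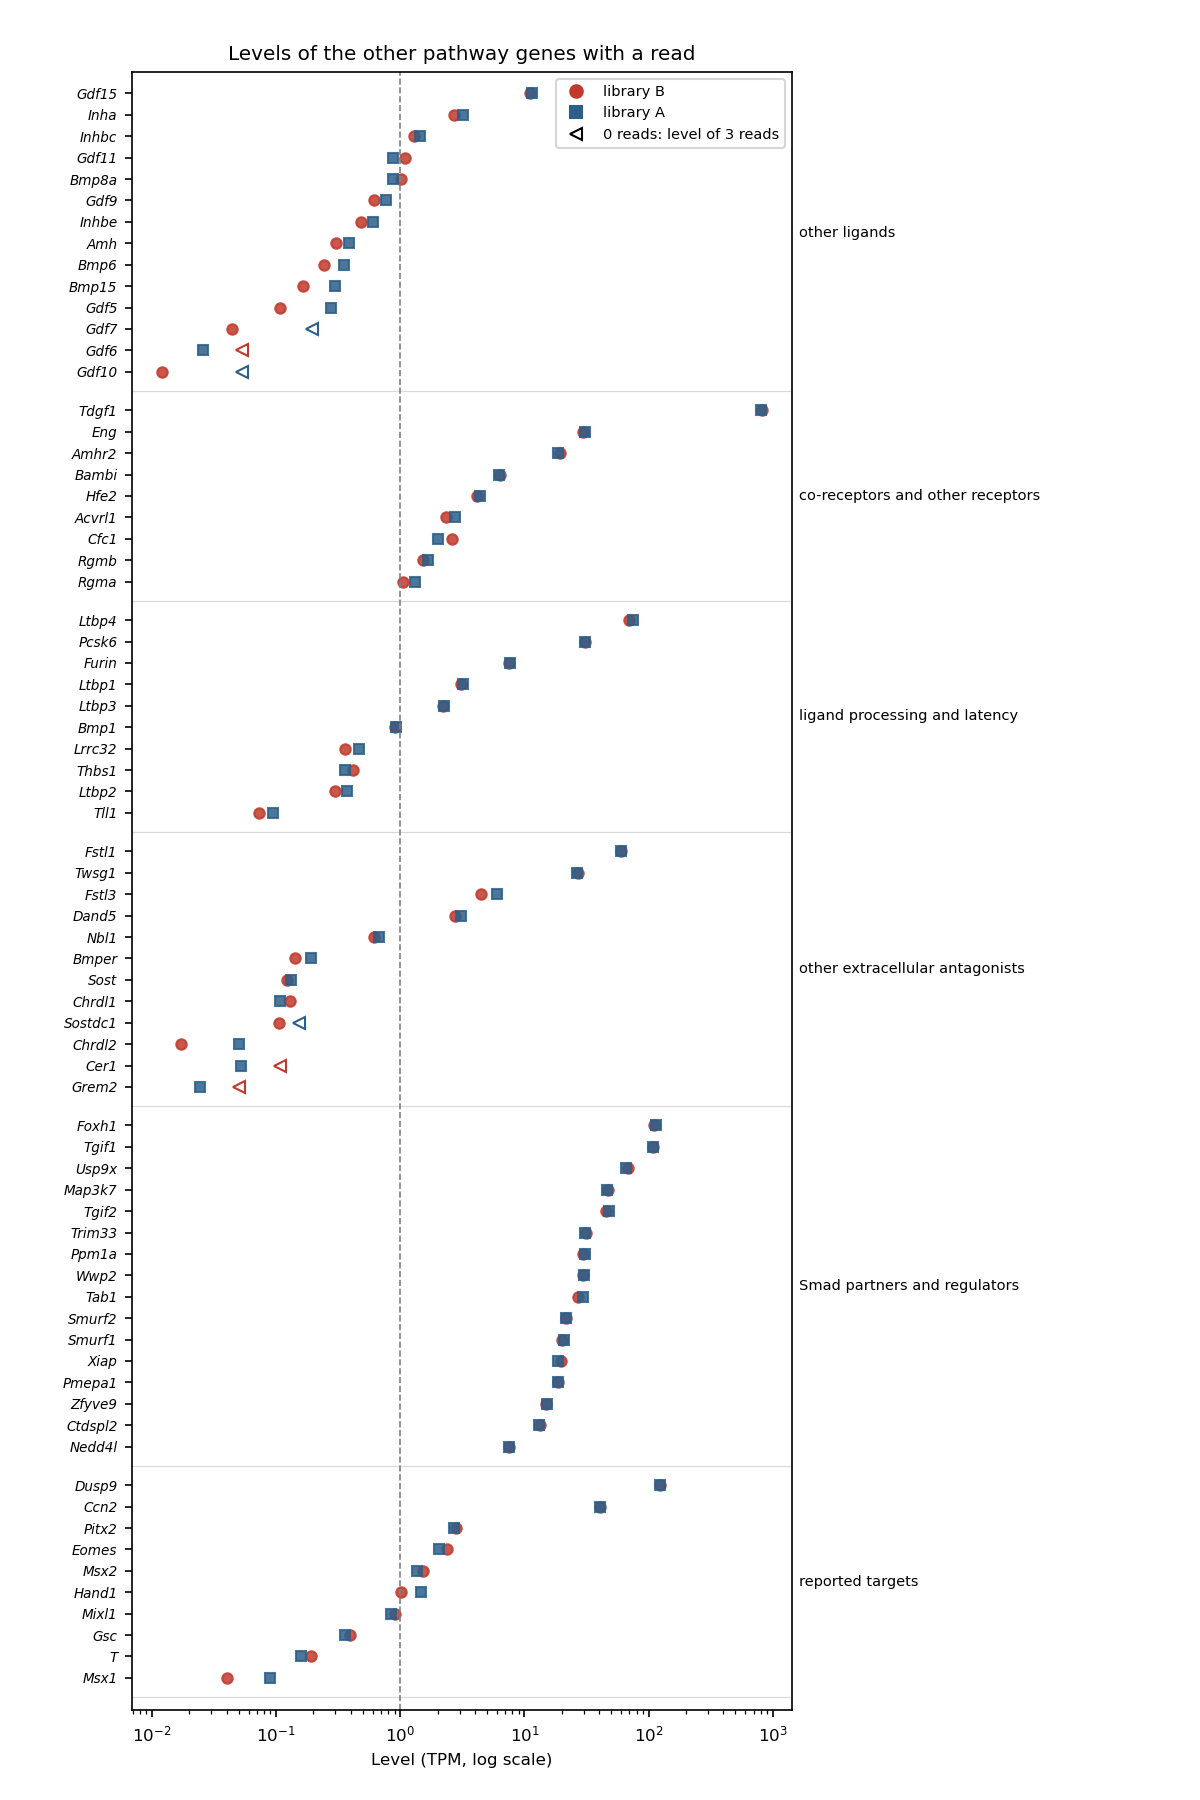
Level of the other pathway genes with a read, 1 reported target left out, in library B (circles) and library A (squares), in TPM on a log axis, grouped by role, with open triangles at the level of 3 reads for a library with 0 reads. Tdgf1 lies highest at 808 TPM, the 16 Smad partners and regulators lie at or beyond 7.49 TPM (right of the dashed line at 1 TPM), and 3 of 18 other ligands reach 1 TPM in both libraries.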

How the data were processed

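Poly-A RNA of both libraries was taken with Trizol and made into reverse-stranded TruSeq libraries, per the labels' protocols. The deposited values are unnormalized counts that the authors made for each Ensembl gene ID, with a file for each library. Per the submitters' processing notes, STAR 2.4.2a, featureCounts 1.4.5-p1 and mm10 were used. Strand setting, annotation release and how reads with several matches were counted were not given in the sources used here. Symbols, positions, exon lengths and 3′ UTRs came from GENCODE M21 (GRCm38), which matched 97.5% of gene IDs; the others held 0.163% of counts. TPM used the union of exons of a gene. Counts were scaled by TMM (edgeR 4.0.16, R 4.3.3), 0.5 reads were added for log2 ratios, and genes with at least 10 reads were tested. The test was also run on simulated data with 200 of 18198 genes changed, each with at least 100 reads. It recovered 98.5% of 2-fold, 88.5% of 1.5-fold and 66.5% of 1.25-fold changes, and made 1 call with none changed. The simulated counts held counting error only, without a GC trend, and all changes were upward in B. They do not show how the test behaves with further spread between libraries. Alternatives were DESeq2 1.42.0 size factors or totals as scaling, filters of 1 and 50 reads, removal of the GC trend, edgeR's exact test, other TPM limits, the longest transcript and each library alone. The rule for named genes took all 43 genes, Drosha, the 3 highest genes of each pathway list (1 reported target is not reported here), the 2 highest of each marker list, any gene called or past 2-fold, and genes that overlap a member or share its sequence; of the overlapping or sequence-sharing genes, those of Lefty1, Lefty2, Bmp8b, Acvr2a and Chrd are named and the rest left out. The targets Mixl1, T and Hand1 were chosen with their values in view. The members and lists were chosen with earlier results of these data known. Scripts ran in Python 3.11.15 (scipy 1.17.1, pandas 2.3.3, matplotlib 3.10.9).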

Additional observations from a re-analysis of the deposited data

How the results depend on the processing

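The median level of the 43 genes was 7.86 TPM by exon length and 8.21 TPM by the longest transcript, which moved 1 of 42 levels by more than 1.5 times (Tgfb1); it was 7.96 TPM in B alone and 7.76 TPM in A alone. The number at 1 TPM in both libraries was 30, and lay between 26 and 33 with limits of 0.5 TPM, 5 TPM or 1 CPM, with the longest transcript and in each library alone. Of the other pathway genes, 29 reached 5 TPM in place of 44 at 1 TPM, and the 3 called became 0 with the GC trend removed and 0 in edgeR's exact test, both chosen after seeing the data. The number called between the libraries was 0 under every scaling and filter run and in edgeR's exact test, and 1 (Inhbb) with the GC trend removed. A filter of 1 read put 3 genes past 2-fold in place of 0, namely Acvr1c, Bmp2 and Bmp5, each with 6 reads or fewer. Scaling by total counts shifted every log2 ratio by -0.0073. The seed match was found in 10 genes and, followed by A, in 4. Windows shared with another gene were found in 16 genes at 50 bases and in 6 at 100 bases. No paired analysis was possible because both libraries belong to 1 group. Depth limits the genes with fewer than 10 reads, which were given levels and no test.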
